A study of Caenorhabditis elegans with 2 samples.

Results

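The genes of gluconeogenesis and the glyoxylate cycle were examined for peaks of MDT-29 in Caenorhabditis elegans larvae. The set held 9 genes, pck-1, pck-2, pyc-1, fbp-1, icl-1, gpd-2, gpd-3, tpi-1 and enol-1, of the 19973 nuclear protein-coding genes of the annotation. The members were chosen by the peak signal of these same data, led by the strong pck-2 peak, so their peaks are described here and not tested. For each gene the peaks counted were those with a summit at most 1000 bp from the 5′ end of any of its transcripts, in the ce11 genome, which is WBcel235. MDT-29 belongs to Mediator, a large complex through which transcription factors on the DNA act on RNA polymerase II.

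Chromatin immunoprecipitation with sequencing (ChIP-seq) was done on whole L4 larvae at 48 hours of age, synchronised by letting hatched L1 larvae starve after bleaching. The strain, RJP4521, carries rp133 (Degron::GFP::mt-29) on chromosome III, a CRISPR insertion at mdt-29, which another label calls an eGFP fusion. An antibody against GFP was used, though the labels give mdt-29 as the antibody. There was 1 group of 2 biological replicates, and each carried the tagged protein, so there was no contrast between conditions. The authors deposited a main list of 1705 peaks and a conservative list of 1690 peaks made from both samples, a list of 777 peaks for replicate 1 and a list of 1050 peaks for replicate 2. Each of these thresholded lists was cut by the authors from a far longer ranked list, which held 98568 peaks in the case of the main list. How deeply each sample was sequenced is unknown. In whole larvae, strong binding in few cells and weak binding in many cells cannot be told apart.

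Gluconeogenesis makes glucose from non-sugar carbon by running most steps of glycolysis backwards. Pyruvate carboxylase, phosphoenolpyruvate carboxykinase (PEPCK) and fructose-1,6-bisphosphatase bypass the glycolytic steps that cannot be reversed, while enolase, glyceraldehyde-3-phosphate dehydrogenase (GAPDH) and triosephosphate isomerase work in both directions. The glyoxylate cycle, present in nematodes and absent from mammals, feeds the pathway by turning acetyl-CoA from fat into C4 acids, so that stored fat can become sugar and trehalose in larvae that do not feed.

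The DNA under 4 of the peaks is shown to set a peak at an annotated 5′ end beside peaks farther from one. Each stretch was taken from the RefSeq WBcel235 genome on the minus strand, which is the coding strand of all 4 genes, and is written 5′ to 3′. Capitals mark a match to 1 of the motifs described further on, and the gpd-2 stretch holds none. The icl-1 stretch is the 120 bases upstream of the 5′ end, at chrV:728005-728124, with a TATA box in capitals. The pyc-1 stretch, chrV:11822671-11822791, lies 60 bases to either side of the upstream summit and holds a GATA site, read here from the other strand. The gpd-2 stretch, chrX:3114501-3114621, and the pck-1 stretch, chrIII:65350-65470, are centred in the same way on summits inside the genes, and the latter holds an E-box.
icl-1: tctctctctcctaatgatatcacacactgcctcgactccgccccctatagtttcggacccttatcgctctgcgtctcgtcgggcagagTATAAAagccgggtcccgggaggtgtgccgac
pyc-1: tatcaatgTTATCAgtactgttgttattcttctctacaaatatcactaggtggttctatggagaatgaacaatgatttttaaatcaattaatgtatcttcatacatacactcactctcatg
gpd-2: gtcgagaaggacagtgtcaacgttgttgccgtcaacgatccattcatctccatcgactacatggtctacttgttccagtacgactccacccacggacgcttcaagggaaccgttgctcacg
pck-1: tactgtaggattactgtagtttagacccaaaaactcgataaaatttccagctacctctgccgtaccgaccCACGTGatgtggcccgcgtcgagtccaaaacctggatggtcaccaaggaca

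Of the 9 genes, 6 had a peak in the main list: both PEPCK genes, pyc-1, icl-1, gpd-2 and gpd-3. By the same rule 5.11% of all nuclear protein-coding genes had one, but the members were chosen with these peaks known, so nothing is read from the gap. The same 6 genes had a peak in the conservative list, where the share of all genes was again 5.11%. In narrower windows 5 members had a main peak within 500 bp of a 5′ end, against 3.57% of all genes, and 4 within 250 bp, against 2.12%. In the samples taken singly the picture was thinner. Replicate 1 alone had thresholded peaks at 3 members, pck-2, icl-1 and gpd-2, against 2.51% of all genes. Replicate 2 alone had them at 5 members, pck-2, pyc-1, fbp-1, gpd-2 and gpd-3, against 3.4% of all genes. Only pck-2 and gpd-2 had a thresholded peak in each sample, and 1.94% of all genes did. The share of genes with a main peak also rose with the number of distinct 5′ ends, each of which can add to the window searched. Why it rose was not tested. Of genes with 1 distinct 5′ end 3.89% had a main peak, of those with 2 or 3 it was 7.83%, and of those with 4 or more, such as pck-2 with 5, it was 10.6%.

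**Figure D1:**
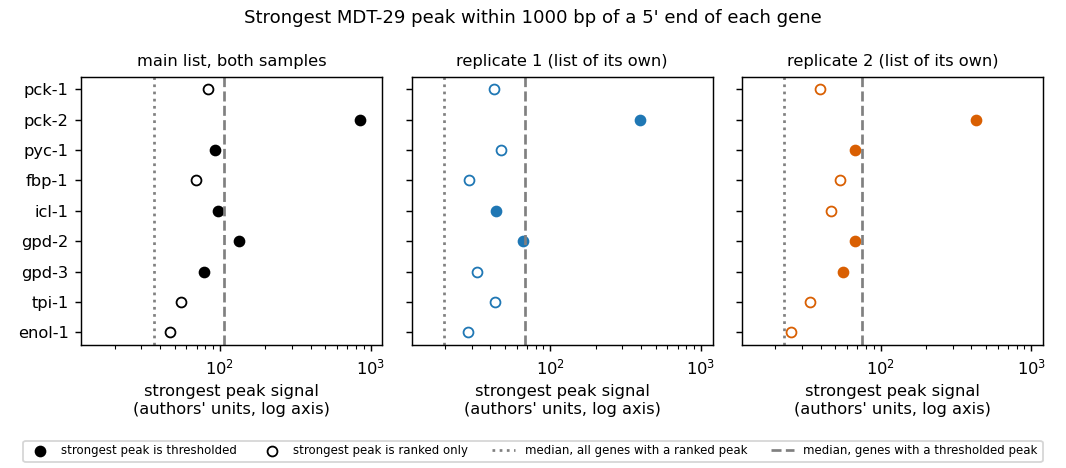
Strongest MDT-29 peak signal (horizontal log axis, the authors' units) within 1000 bp of a 5′ end of each of the 9 genes, in the list of both samples and in each sample's own list; filled points are peaks of the thresholded list, open points are in the ranked list only, and lines mark medians over genes. pck-2 stands at 847, 394 and 430 in the 3 panels, and no other member exceeds 134, 65.9 and 67.8.

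pck-2 encodes a form of PEPCK, the enzyme that turns oxaloacetate into phosphoenolpyruvate and commits carbon to gluconeogenesis. It spans chrI:7866136-7872100 on the plus strand and had 5 main summits within 1000 bp of its 5′ ends. Only 2 genes of the genome had 5 or more, which is 0.01% of genes. The strongest summit lay at position 7869121, in a peak at chrI:7868945-7869557. Its signal, the strength that the authors' processing gave each peak, was 847 in the main list, the 7th highest of 1705 peaks. In the samples' own lists it was 394 in replicate 1 and 430 in replicate 2, with a mean of 412 ± 25.3 (SD, n = 2), and both were past the threshold. The values sat close together and far above every other peak of the set. Since the scale of signal between samples is not stated, each such SD includes any difference of scale.

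This strongest summit did not lie at the start of the longest transcript. It was 2985 bp downstream of the 5′ end of R11A5.4a.1 and 25 bp downstream of the 5′ end of R11A5.4b.1, a shorter isoform that begins at position 7869096. Measured on R11A5.4a.1, the summit fell in the 3378 bp intron between the second and the third exon. A second summit in the same peak, 231 bp downstream of the R11A5.4b.1 start, had a signal of 312 in the main list. It reached 109 in replicate 1 and 101 in replicate 2, for a mean of 105 ± 5.24 (SD, n = 2). The first coding base of R11A5.4b.1 lies at position 7869901, so both summits fell in sequence annotated as the 5′ untranslated exon of that isoform.

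The other 3 pck-2 summits were of middling height. The summit 21 bp downstream of the R11A5.4a.2 start, the one nearest to the upstream start of the gene, had a signal of 135. Replicate 1 gave it 65.2 and replicate 2 gave it 68.0, a mean of 66.6 ± 2.00 (SD, n = 2), yet only replicate 2 had it past the threshold. The summit 704 bp downstream of a 5′ end, in the long intron, had a signal of 144, from 55.1 in replicate 1 and 84.9 in replicate 2, with a mean of 70.0 ± 21.0 (SD, n = 2). It also lay 658 bp from a 5′ end of R11A5.6, a gene nested in that intron on the other strand, and cannot be given to either gene. The summit 706 bp upstream of R11A5.4b.1 had a signal of 178, from 92.9 and 73.7, with a mean of 83.3 ± 13.6 (SD, n = 2), and lay 472 bp upstream of R11A5.6. Both of these intron peaks were past the threshold in each sample. The conservative list held 1 more summit, 506 bp upstream of R11A5.4b.1, with a signal of 11.8.

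**Figure D2:**
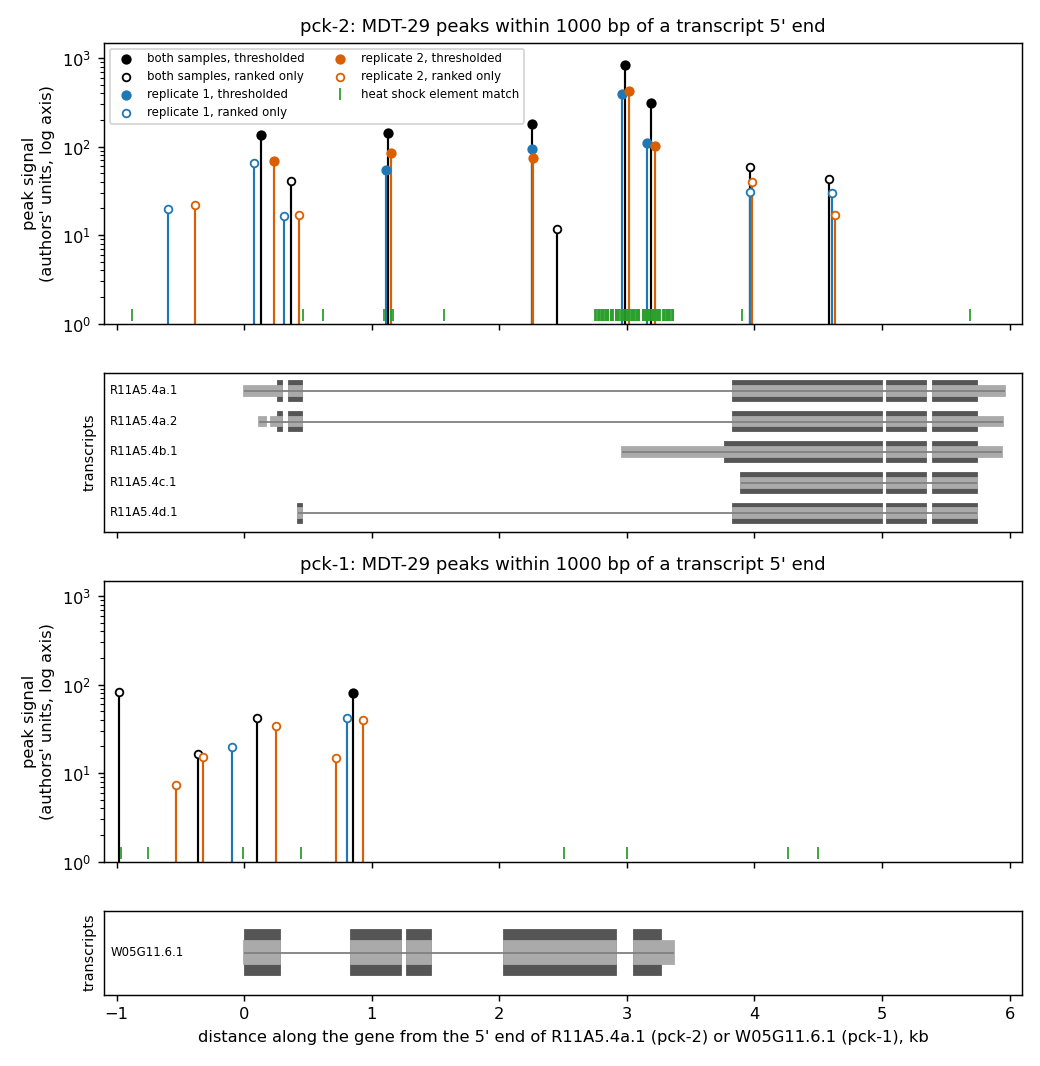
Signal of every peak (vertical log axis, the authors' units) within 1000 bp of a 5′ end of pck-2 (top) and pck-1 (bottom) against distance along the gene in kb, for both samples together (black) and each sample (blue, orange); filled points are thresholded, green ticks are heat shock element matches, and the boxes below are exons, dark and tall where coding. The pck-2 summits of 847 and 312 sit over the dense run of green ticks, and no pck-1 peak exceeds 83.1.

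pck-1 encodes a paralogous PEPCK. It has 1 annotated transcript, at chrIII:62888-66260 on the minus strand, and had 1 main peak, at chrIII:65250-65569. The summit lay 850 bp downstream of the 5′ end, in a coding exon. Its signal was 80.9, with 42.2 in replicate 1 and 39.7 in replicate 2, a mean of 40.9 ± 1.77 (SD, n = 2). The levels were alike in both samples, and neither had it past the threshold. Its score, which the authors scaled from the irreproducible discovery rate (IDR, how well a peak's rank repeats in a pair of lists) up to 1000, was 36 in replicate 1 and 677 in replicate 2, while the thresholded lists begin at 830. The conservative list added a pck-1 peak 981 bp upstream, with a signal of 83.1 and a score of 851. Nearer to the 5′ end the ranked list of both samples held a summit 98 bp downstream, with a signal of 41.5 and a score of 170, and one 362 bp upstream, with 16.6 and a score of 119.

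Taking the strongest peak of each gene in the ranked list of both samples, pck-2 stood 10.2 times higher than pck-1. The ratio was 9.34 in replicate 1 and 10.8 in replicate 2, a mean of 10.1 ± 1.06 (SD, n = 2). These ratios used different pck-1 peaks. Behind the 10.2 was the one 981 bp upstream, and behind the sample values were peaks 825 bp downstream in replicate 1 and 917 bp downstream in replicate 2. In the main list, with the pck-1 peak 850 bp downstream, the ratio was 10.5. Within 250 bp or 500 bp of a 5′ end the ratio was 20.4, since the pck-1 peaks far from the start drop out. In those windows it was 20.1 in replicate 1 and 12.5 in replicate 2. The sum over all ranked peaks within 1000 bp gave a ratio of 7.97, with 13.2 in replicate 1 and 7.65 in replicate 2. The gap rested on the isoform start. Without the 5′ ends of R11A5.4b.1 and of R11A5.4c.1, the other short isoform, the strongest pck-2 peak was the intron peak of 144. It gave a ratio of 1.73, though that peak cannot be given to pck-2 rather than R11A5.6. The ratio was 1.55 in replicate 1, from its peak of 65.2 near the upstream start. It was 2.14 in replicate 2, from the intron peak. This last comparison was added after the data were seen. pck-2 was chosen for its strong peak, so these ratios carry no test.

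The DNA under the strongest pck-2 peak was a repeat of heat shock elements. The heat shock element is the site of heat shock factor and is made of GAA units in alternating direction. It was searched as GAANNTTC and as TTCNNGAA, each of which reads the same on both strands, and matches of these forms overlap one another in a run. Within 150 bp of the summit, a window of 301 bp, the summit of signal 847 had 40 matches, 20 of each form. The summit of signal 312 had 41. The intron summit at 704 bp had 4 matches, and the 9 other distinct main peaks of the set had 0. Among all main peaks 69.4% had no match and the median was 0. At least 10 matches were found at 30 of the 1705 main peaks, or 1.76%, and around 5 of 29773 transcript 5′ ends, or 0.0168%.

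Joined where matches lay at most 40 bp apart, the run at pck-2 was 624 bp long with 84 matches, at chrI:7868883-7869506. The R11A5.4b.1 start lies 213 bp inside it. Shifted by 40 bp against itself, the run had 84.2% identical bases, and by 80 bp it had 86.9%. The genome held 350 runs of at least 10 matches, with a median length of 193 bp and a median of 21 matches. Of these, 27 (7.71%) overlapped a main peak, and 18 overlapped a peak of both samples. All main peaks cover 0.510% of the genome. That is a share of bases and not a like measure, since a run was counted at any overlap. The pck-2 run was the 27th longest, and its signal was the highest of the runs under a main peak. Among main peaks with at least 10 matches the pck-2 peak ranked 2nd by signal. Above it stood the strongest main peak of all, at 4953, with 14 matches that formed no such run. The 30 main peaks with at least 10 matches had a median signal of 164, against 99.2 for the rest. Each summit counts as a peak here, so the pck-2 run, at a gene chosen for its signal, is counted at both of its summits. Of the 30, 6 were among the 25 peaks of highest signal. Most of the 30 also lay on sequence masked as repeat, as given below. Whether the gap in signal goes with the elements or with the repeated sequence was not tested. The lowest of the 30 summits stood at 29.2, though every run under a main peak also overlapped a stronger one. By its strongest main peak, the lowest such run stood at 70.3, with 80 matches. That is below the median of 99.2 for the rest, so a run of elements did not always come with a high signal.

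Repeated sequence bears on how reads are placed. Of the pck-2 peak 94.5% of bases are soft-masked as repeat in the RefSeq genome, and of the intron peak 706 bp upstream of R11A5.4b.1 94.0% are, against a median of 20.9% over the main peaks. The 3 pck-2 summits on masked sequence are the 3 strongest of the gene. The summit at 21 bp lay in a peak with 5.94% masked and the summit at 704 bp in one with 13.1%. Of the 30 main peaks with at least 10 matches, all but the strongest, at 4953, had at least 57.5% of bases masked. That strongest peak stood closer to the median of 20.9%. The part of read placement in these values, and in the higher median signal of the 30 peaks, was not tested.

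**Figure D3:**
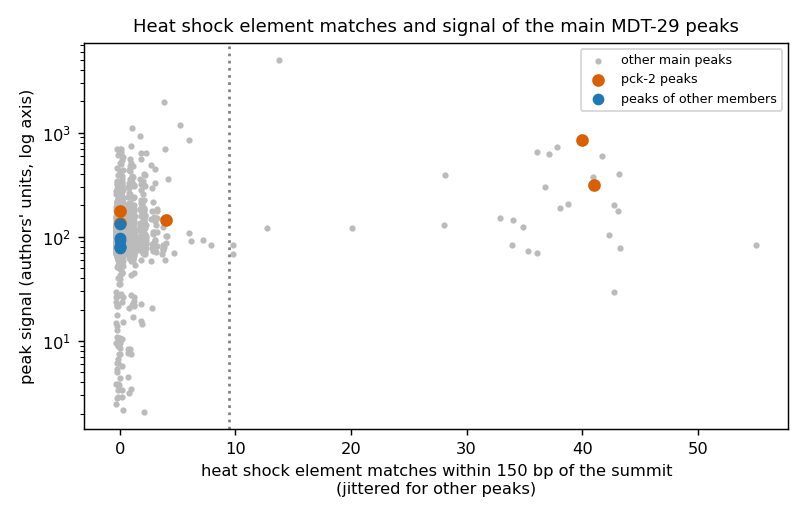
Peak signal (vertical log axis, the authors' units) against the number of heat shock element matches within 150 bp of the summit for the 1705 main peaks, with pck-2 in orange and the other members in blue; the dotted line marks the minimum of 10 matches. The pck-2 summits of signal 847 and 312 fall among the 30 peaks right of the line, most of which lie on sequence masked as repeat. Every peak of the other members has 0 matches.

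By the strongest main peak of each gene, pck-2 ranked 8th of the 1020 genes with one. Just above it stood hsp-1, which encodes a constitutive Hsp70 chaperone, with a signal of 1098 and a summit 395 bp upstream, and tent-5, with 857 and a summit 100 bp downstream. Just below stood dnj-13, a co-chaperone of the DnaJ family, and F54D5.9, which share a peak of 736. pck-2 ranked 7th among genes in replicate 1 and 8th in replicate 2. Over the genes with a main peak the median was 106, with quartiles of 85.5 and 153. gpd-2, at 134, lay between the median and the upper quartile and ranked 330th, and the other 4 members with a main peak lay below the median. Of these icl-1 ranked 616th, pyc-1 665th, pck-1 846th and gpd-3 879th.

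pyc-1 encodes pyruvate carboxylase, which makes oxaloacetate from pyruvate for PEPCK to use. It spans chrV:11817783-11822529 on the minus strand and had 2 main peaks. The summit 465 bp upstream of the start of a shorter isoform, inside an intron of the gene, had a signal of 92.9. Replicate 2 gave it 67.8, past the threshold, while the nearest peak of replicate 1 was 3.78, for a mean of 35.8 ± 45.3 (SD, n = 2). Another replicate 1 peak, 107 bp from that summit, stood at 31.5, and neither was past the threshold. The peak was missing from the conservative list. The summit 202 bp upstream of the gene had a signal of 80.5, with 34.6 in replicate 1 and 61.5 in replicate 2, a mean of 48.1 ± 19.1 (SD, n = 2). Only replicate 2 had it past the threshold, so both pyc-1 peaks were past it in replicate 2 alone. This second peak is the one whose sequence, printed above, holds a GATA site.

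icl-1 encodes the nematode's fused isocitrate lyase and malate synthase, the enzymes that define the glyoxylate cycle. It lies at chrV:724332-728004 on the minus strand, and its single main peak, chrV:727826-728145, had its summit 7 bp downstream of a 5′ end, the closest of the set. The signal was 97.4 and the score 868, the only main peak of the 9 genes with a score under 1000. It was 35.8 in replicate 1 and 46.9 in replicate 2, a mean of 41.4 ± 7.86 (SD, n = 2), past the threshold in neither. Replicate 1 had a thresholded peak 293 bp downstream instead, with a signal of 43.5. The 5′ end of srh-2, a gene of the serpentine chemoreceptor class, lies 315 bp from the summit and that of the noncoding RNA C05E4.16 lies 245 bp away, so the peak cannot be given to icl-1 alone. The TATA box in the printed sequence belongs to this peak, the only member peak with that motif within 150 bp of its summit.

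gpd-2 and gpd-3 encode GAPDH, lie in tandem on the minus strand of chromosome X and are known to be transcribed in an operon behind mai-1. Their coding sequences, 1023 bases each, are 97.4% identical. gpd-2, chrX:3113443-3114689, had 3 main peaks. The summit 128 bp downstream of its 5′ end, in a coding exon, had a signal of 134, with 65.9 in replicate 1 and 67.6 in replicate 2, a mean of 66.8 ± 1.18 (SD, n = 2). It was past the threshold in each sample, and of the peaks outside pck-2 it was the only one to be so. The summit 822 bp upstream lay in an exon of mai-1, 67 bp from the start of that gene. Its signal was 79.0, with 52.9 in replicate 1 and 29.8 in replicate 2, a mean of 41.3 ± 16.3 (SD, n = 2). It was past the threshold in replicate 1 and was missing from the conservative list.

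The third gpd-2 peak was also the main peak of gpd-3, chrX:3112091-3113341. Its summit lay 897 bp into gpd-2, in a coding exon, and 451 bp upstream of gpd-3. The signal was 78.6, with 32.7 in replicate 1 and 56.6 in replicate 2, a mean of 44.7 ± 16.9 (SD, n = 2), past the threshold in replicate 2. gpd-3 had 1 more thresholded peak in replicate 2 alone, 351 bp downstream of its 5′ end, with a signal of 40.4. The 121 bases around the gpd-2 summit at 128 bp, printed above, matched gpd-3 at 96.7% of positions in their best ungapped placement, and those around the summit at 897 bp at 97.5%. In the wider windows of 301 bp the best ungapped match was 34.9% at the former and 97.3% at the latter. How reads were divided between the copies was not tested.

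fbp-1 encodes fructose-1,6-bisphosphatase, which removes a phosphate late in gluconeogenesis. It lies at chrI:2581015-2586124 on the minus strand and had no main peak in the window. In the ranked list of both samples a summit 277 bp upstream had a signal of 69.7 and a score of 237, and a summit 801 bp upstream had 59.9 and a score of 824, just under the minimum of 830. Near the latter, replicate 2 had a thresholded peak of 48.9, 826 bp upstream, where replicate 1 reached 11.4. A stronger peak stood past the window, 1381 bp upstream at chrI:2587439-2587584. Its signal was 225, with 118 in replicate 1 and 111 in replicate 2, a mean of 115 ± 4.82 (SD, n = 2). It was past the threshold in each sample, and fbp-1 had the nearest protein-coding 5′ end.

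tpi-1 encodes triosephosphate isomerase and enol-1 encodes enolase. Neither had a thresholded peak in any list. tpi-1, at chrII:12036835-12039139, had ranked peaks of 54.8 and 54.2, 161 bp and 588 bp downstream of its 5′ end. enol-1, at chrII:8930997-8933799, had its highest ranked peak 773 bp downstream, at 47.0. Some ranked peak in the window was found at 76.4% of all genes, with a median of 36.3 and an upper quartile of 48.1 for the strongest. tpi-1 lay above that quartile and enol-1 just below it. The strongest ranked peak of tpi-1 exceeded that of 87.2% of all genes, a gene with no ranked peak counting as lower, and that of enol-1 exceeded 79.7%. For fbp-1 the share was 93.6%, and for the 6 members with a main peak it ran from 95.2% to 99.96%.

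**Figure D4:**
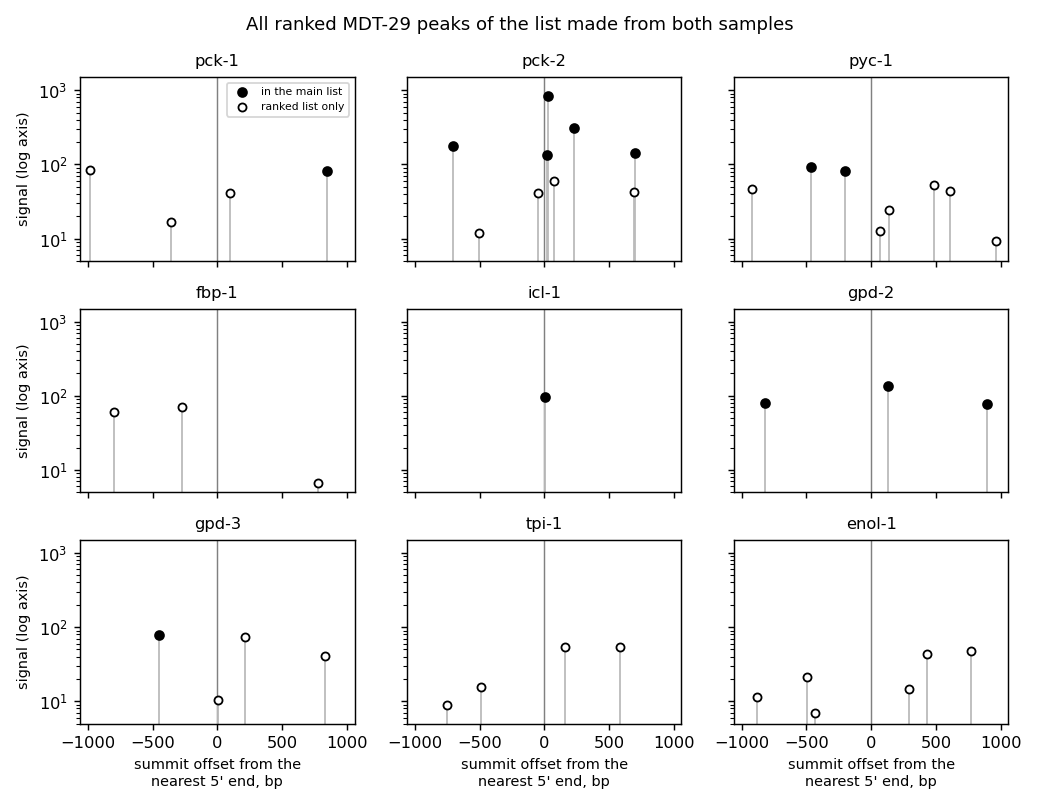
Signal (vertical log axis, the authors' units) of all ranked peaks of both samples against the offset of the summit from the nearest 5′ end in bp, upstream to the left, for each of the 9 genes; filled points are in the main list. icl-1 has its peak at 7 bp, the pck-1 main peak sits at 850 bp, and fbp-1, tpi-1 and enol-1 have open points only.

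The edges of the rule cut through several of these values. By score, icl-1 was the last inside at 868, while fbp-1 at 824 and the upstream pck-1 summit at 817 were the first outside the main list. By distance, the gpd-2 summit at 897 bp was the last main summit inside 1000 bp. Just outside lay the gpd-2 peak of 134 seen from gpd-3, at 1220 bp, and a tpi-1 peak 1247 bp upstream, with a signal of 82.3, from 49.1 in replicate 1 and 40.6 in replicate 2. The nearest main peak to enol-1 was 1777 bp away, had a signal of 117 and lay closer to T21B10.3. Those upstream of pyc-1, 1630 bp away with 202, and of icl-1, 2495 bp away with 176, lay closer to D2023.4 and srh-2.

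In all the 9 genes had 12 distinct main peaks. Of these 5 lay upstream of the nearest member 5′ end and 10 lay inside the member's own gene. The peak shared by gpd-2 and gpd-3 is in both counts, as upstream of gpd-3 and as inside gpd-2. In the conservative list 10 of the 12 had a peak of the same summit, against 82.2% of all main peaks. Past the threshold in both samples were 5 of the 12, against 31% of all main peaks, and 2 were past it in neither, against 35.7%. Of the motifs searched within 150 bp of the summit on both strands, the GATA site (TGATAA), which GATA factors such as those of the intestine bind, was found at 5 of the 12 peaks. It was found at 25.4% of main peaks and around 28.4% of 5′ ends. The E-box (CACGTG), a site of basic helix-loop-helix factors, was found at 2 peaks, against 14.6% and 6.25%. The forkhead site (GTAAACA), which DAF-16 binds, was found at 0, against 4.40% and 3.90%. The TATA box (TATAAA) was found at 1, against 22.2% and 33.2%. GAANNTTC was found at 3 peaks, against 20.2% and 18.5%, and TTCNNGAA at the same number, against 19.0% and 19.6%, all of them at pck-2. A match is a description of letters and shows no binding. The windows of the 12 peaks had a median of 45.8% G and C bases, against 41.5% for all main peaks.

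Of 72 other genes of central carbon metabolism and its control, 13 had a main peak (18.1%). In single groups the counts were 2 of 16 for the rest of glycolysis and gluconeogenesis, 2 of 6 for pyruvate dehydrogenase, 3 of 24 for the tricarboxylic acid cycle and malic enzyme, 1 of 4 for the pentose phosphate pathway, 3 of 13 for glycogen and trehalose, and 2 of 9 for regulators of fasting metabolism. The lists were drawn up with earlier results of these data known, so the share is set beside the 5.11% of all genes without a test. In both samples' own lists 5 of the 72 (6.94%) had a thresholded peak, against 1.94% of all genes. These were aldo-2, idh-1, mev-1, tre-1 and aak-2, of which idh-1 had none in the main list.

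aldo-2, which encodes the aldolase that joins triose phosphates, led the 13 with a signal of 333, 390 bp upstream in an exon of mig-21. It was 177 in replicate 1 and 160 in replicate 2, a mean of 168 ± 12.2 (SD, n = 2), still below the 412 of pck-2. aak-2, a catalytic subunit of AMP-activated kinase, had 164, from 70.2 and 99.7, at 957 bp downstream and 128 bp from the noncoding RNA T01C8.9. mev-1, a subunit of succinate dehydrogenase, had 142, from 59.4 and 89.7, in a peak shared with jmjd-4. tre-1, a trehalase, had 130, from 56.9 and 74.7, in a peak shared with dad-1 and the noncoding RNA F57B10.17. These 4 were the ones past the threshold in both samples.

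The other 9 ran from 77.4 to 121 in signal. They were the pyruvate dehydrogenase kinase gene pdhk-2 (121), the dihydrolipoamide dehydrogenase gene dld-1 (102), the trehalose phosphatase gene gob-1 (102), the phosphoglycerate kinase gene pgk-1 (93.7), the transaldolase gene tald-1 (90.8), the aconitase gene aco-2 (89.6), the FOXO factor gene daf-16 (88.9), the fumarase gene fum-1 (77.9) and the glycogen synthase gene gsy-1 (77.4). Several shared their peak: that of aco-2 lay 10 bp from the start of eef-1B.1, that of pgk-1 was shared with hcp-4 and that of dld-1 with nspg-9. The daf-16 peak lay 473 bp from the daf-16 start and 5 bp from that of the noncoding RNA H36N01.4. Noncoding RNA genes also began within 1000 bp of the summits at aco-2, dld-1, tald-1 and fum-1. None of the 13 had more than 1 heat shock element match within 150 bp of the summit. At pdhk-2 the samples were far apart, with 25.4 in replicate 1 and 84.5 in replicate 2.

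**Figure D5:**
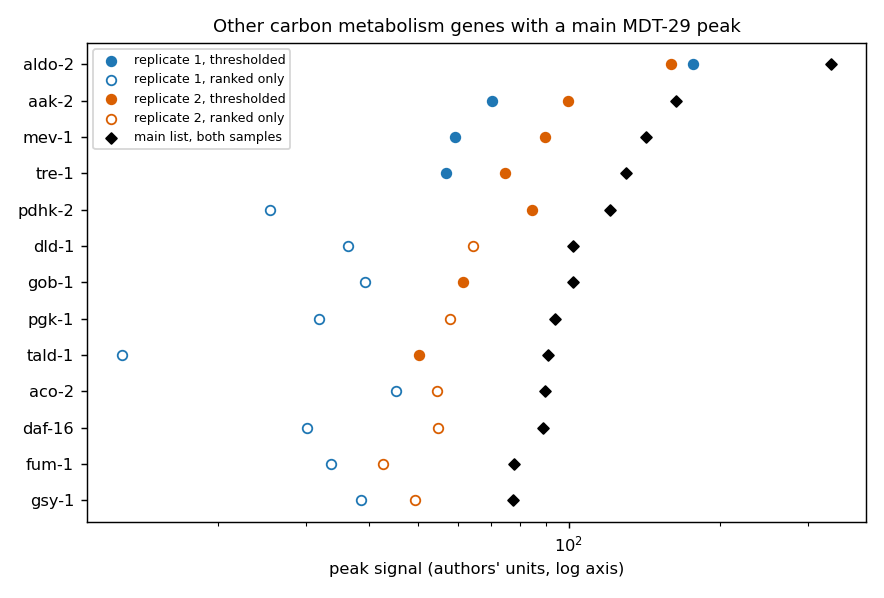
Signal (horizontal log axis, the authors' units) of the strongest main peak of the 13 other carbon metabolism genes that had one, in the main list (black) and in each sample's own list; filled circles are thresholded in that sample. aldo-2 stands highest at 333, and aldo-2, aak-2, mev-1 and tre-1 have filled circles for both samples.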

How the data were processed

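All peaks come from lists the authors deposited, 1 group of 2 samples, with coordinates in ce11, per the labels; the aligner and peak caller are not given in the sources used here. The signal of a peak, its summit and its score, a scaled IDR, are the authors' values. In the ranked lists the authors added the −log10 of each peak's global IDR. Notes deposited with the samples say that the main and conservative lists drew on both samples. Reads, input and an untagged strain were not used here, and depth is unknown. The 32 columns that describe the paired peaks behind each IDR in the 4 ranked lists were not used.

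Transcript 5′ ends came from Ensembl annotation release 115 (WBcel235), and sequences and soft-masking from the RefSeq genome of the same assembly. Summits were counted from 1, and an offset is to the nearest 5′ end of the gene. A sample's value is the signal of its ranked peak with the nearest summit within 150 bp of the main summit. The genes named were the 9 members, each listed pathway gene with a main peak, those next to pck-2 in rank, and genes sharing a member's peak; genes beyond these were picked with their values in view. Members and lists were chosen with earlier results of these data known, so no test was made. The rule for giving peaks to genes was tested on simulated data. Alternatives were other windows (250 and 500 bp), lists, thresholds (a global IDR of 0.001 or 0.05) and overlap in place of the summit. Work ran in Python 3.11.15 with numpy 2.4.6, pandas 2.3.3 and matplotlib 3.10.9.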

Additional observations from a re-analysis of the deposited data

How the results depend on the processing

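The count of 6 members with a main peak was 4 at 250 bp, 5 at 500 bp, 6 by any overlap and 8 at a global IDR of 0.05, and fell to 2, pck-2 and gpd-2, at 0.001. With 1 sample left out it ran from 3 to 5. The 13 other pathway genes became 5 at 250 bp, 8 at 500 bp, 5 at an IDR of 0.001 and 25 at 0.05, and ran from 6 to 8 with 1 sample left out. Over all genes the 1020 became 424 at 250 bp, 485 at an IDR of 0.001 and 1745 at 0.05, and ran from 501 to 680 with 1 sample left out. The members with a thresholded peak in each sample were 2 in both smaller windows and 3 at an IDR of 0.05. The pck-2 signal of 847 was 394 to 430 in 1 sample, on each sample's own scale. The ratio of pck-2 to pck-1 was 20.4 at 250 bp and at 500 bp, 7.97 by the sum of signals (20.1 and 12.5, and 13.2 and 7.65, in replicates 1 and 2), and 9.34 to 10.8 with 1 sample left out. Without the 2 downstream isoform starts, an alternative chosen after seeing the data, it was 1.73. Fewer peaks, 742 at an IDR of 0.001, lie behind the lower counts, and 3356 at 0.05 behind the higher ones. No paired analysis was possible because there was 1 group and no test. Depth is unknown, and no untagged strain or input was used here. The lack of a thresholded peak at tpi-1 or enol-1 therefore does not show an absence of MDT-29 there.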
